A study of Mus musculus with 4 samples.

Results

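The expression of 10 genes that encode regulators of alternative splicing was followed through adult neurogenesis in the mouse dentate gyrus. They were Rbfox1, Rbfox2, Rbfox3, Nova1, Nova2, Khdrbs2, Khdrbs3, Ptbp1, Ptbp2 and Ptbp3, taken as a named list from the 45706 features of the count matrices. On GRCm38, with the strand in parentheses, GENCODE places the Rbfox genes as Rbfox1 at chr16:5885355-7411526 (+), Rbfox2 at chr15:77078990-77307004 (-), Rbfox3 at chr11:118489762-118911597 (-), and the Nova genes as Nova1 at chr12:46694517-46818929 (-) and Nova2 at chr7:18925888-18965319 (+). The Khdrbs genes are Khdrbs2 at chr1:32172714-32658568 (+) and Khdrbs3 at chr15:68928420-69101211 (+), and the Ptbp genes Ptbp1 at chr10:79854427-79864771 (+), Ptbp2 at chr3:119718742-119784466 (-), Ptbp3 at chr4:59471868-59549364 (-). All 10 were present and passed the filter on low counts, after which 11548 genes were tested. Nuclei came from the left dentate gyri of young adult male and female mice in a C57Bl/6J background that carried a tamoxifen-inducible Cre (CreERT2) and the reporter CAGfloxStopSun1sfGFP, in which tamoxifen (TAM) places a green fluorescent protein on the nuclear envelope of recombined cells and their progeny. All 4 groups carried both alleles and received TAM, and they differed in the time from TAM to tissue collection, which was 1 week (w1), 2 weeks (w2), 4 weeks (w4) and 8 weeks (w8). The nuclei sorted are those of recombined cells and their progeny and not a census of the tissue. Each time point was 1 library made from a pool of 4 dentate gyri, so no test between weeks was possible. Tissue of 2 time points was processed per day.

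Alternative splicing lets a gene yield several messenger RNAs, and the nervous system uses it more than most tissues. Rbfox proteins bind short sequence elements in introns beside the exons they control, and the Rbfox3 protein is NeuN, the antigen used to mark mature neurons. Nova1 and Nova2 were found as antigens of a paraneoplastic neurological disorder and act on transcripts of synaptic proteins. Khdrbs2 and Khdrbs3 belong to the STAR family and control alternative exons of the neurexins, which are presynaptic adhesion molecules. Ptbp1 represses neuronal exons in progenitors and non-neuronal cells, Ptbp2 is its neuronal paralog and Ptbp3 is the least studied of the family. In Ptbp1-expressing cells, Ptbp1 causes an exon of Ptbp2 to be skipped, and the transcript without it is degraded.

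That exon is shown because it links both genes compared most closely here. It has 34 bases and lies at chr3:119724612-119724645 of GRCm38, on the minus strand. It is coding, and of the 13 annotated transcripts of Ptbp2, 3 hold it and 3 skip it, 2 of which carry the nonsense-mediated decay label while 0 are protein coding. The exon is in capitals, with 30 bases of its transcript on each side.
Ptbp2 exon: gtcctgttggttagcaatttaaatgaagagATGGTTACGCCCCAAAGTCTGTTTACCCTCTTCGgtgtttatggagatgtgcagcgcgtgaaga
The counts are per gene, so the inclusion of this exon was not measured.

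From NPC to NB1 Rbfox1 was called higher and Ptbp1 lower, the latter in 2 of 3 libraries and in a call that 4 of 11 alternative fits did not keep. The 250 bases before a start site of each are given with RefSeq coordinates on GRCm38.p6. The second annotated Rbfox1 start has its window at chr16:7069585-7069834 on the plus strand, and the window of Ptbp1 is chr10:79854182-79854431 on the plus strand. RefSeq windows were found for 7 of the 10 genes. Capitals mark the E-box letters CAGCTG and CAGATG (or CATCTG, its reverse complement), searched on both strands because basic helix-loop-helix factors bind E-boxes. Other forms of the E-box were neither searched nor marked, so unmarked bases may hold them.
Rbfox1 upstream: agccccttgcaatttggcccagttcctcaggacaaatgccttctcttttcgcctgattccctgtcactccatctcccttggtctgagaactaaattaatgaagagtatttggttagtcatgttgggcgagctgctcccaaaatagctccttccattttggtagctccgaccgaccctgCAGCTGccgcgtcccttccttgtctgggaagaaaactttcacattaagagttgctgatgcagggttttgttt
Ptbp1 upstream: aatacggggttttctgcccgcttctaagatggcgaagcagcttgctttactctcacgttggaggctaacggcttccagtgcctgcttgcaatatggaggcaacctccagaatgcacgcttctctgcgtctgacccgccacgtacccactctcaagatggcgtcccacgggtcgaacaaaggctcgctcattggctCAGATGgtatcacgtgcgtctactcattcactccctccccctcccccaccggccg
CAGCTG begins 72 bases before this Rbfox1 start, and 13% of the 32851 windows of this length hold it. CAGATG begins 55 bases before the Ptbp1 start, and 14.4% of windows hold it. The window of the first Rbfox1 start, at chr16:5884543-5884792, holds neither motif. Of the 8 windows of these genes, CAGCTG is in 2 (the second of Rbfox1 and that of Nova1), CAGATG is in that of Ptbp1, and the other 5 hold neither. These are matches of letters in common motifs, and binding was not measured.

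The deposited clusters served as cell types: radial glia-like cells (RGL), neural progenitor cells (NPC), neuroblasts (NB1 and NB2), immature granule cells (GCimm1 and GCimm2), young granule cells (GCyoung), mature granule cells (GCmat1 and GCmat2), astrocytes, oligodendrocyte precursor cells (OPC), oligodendrocytes and pericytes. They held 14367 nuclei, from 45 oligodendrocytes and 60 pericytes to 3356 GCmat1, and the libraries kept between 13227971 (w1) and 28595331 (w8) UMIs (unique molecular identifiers, each a counted RNA molecule). Between 1 and 6 cell barcodes were shared by any pair of libraries. All 5 astrocyte markers, all 5 NPC markers, all 4 oligodendrocyte markers, all 3 OPC markers and all 3 pericyte markers were highest in their own cluster, and 3 of 5 RGL markers were. Neighbouring stages shared theirs: of the 5 neuroblast markers 3 were highest in NB1 and 2 in NB2, of the 3 immature granule cell markers 1 in GCimm1 and 2 in GCimm2, of the 3 young granule cell markers 2 in GCyoung and 1 in GCmat1, and of the 2 mature granule cell markers 1 in GCmat1 and 1 in GCmat2. Levels are UMIs of a gene per 1000000 UMIs of the same nuclei (CPM), with exact 95% Poisson intervals that cover counting error only. Counts include introns, so a longer gene may collect more UMIs, which was not tested here. Ratios of UMIs between genes are compared only between clusters, and the order of levels among genes is given per length. For the tests UMIs were summed per library and cluster and fitted with edgeR, and a call required both a 1.5-fold difference and an adjusted p (Benjamini-Hochberg, over all genes tested) no higher than 0.05. The authors drew the clusters from expression values of the same nuclei. These p-values therefore describe differences between clusters and are no independent evidence for the clusters. Where a call is counted over alternative fits, those are the fits of the UMI counts under the same call rule, and the 2 other fold thresholds and the deposited log2 means are not among them. Libraries with fewer than 10 nuclei in a cluster are left out of the values by library. A sum cannot tell fewer expressing nuclei from less RNA per nucleus.

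**Figure D1:**
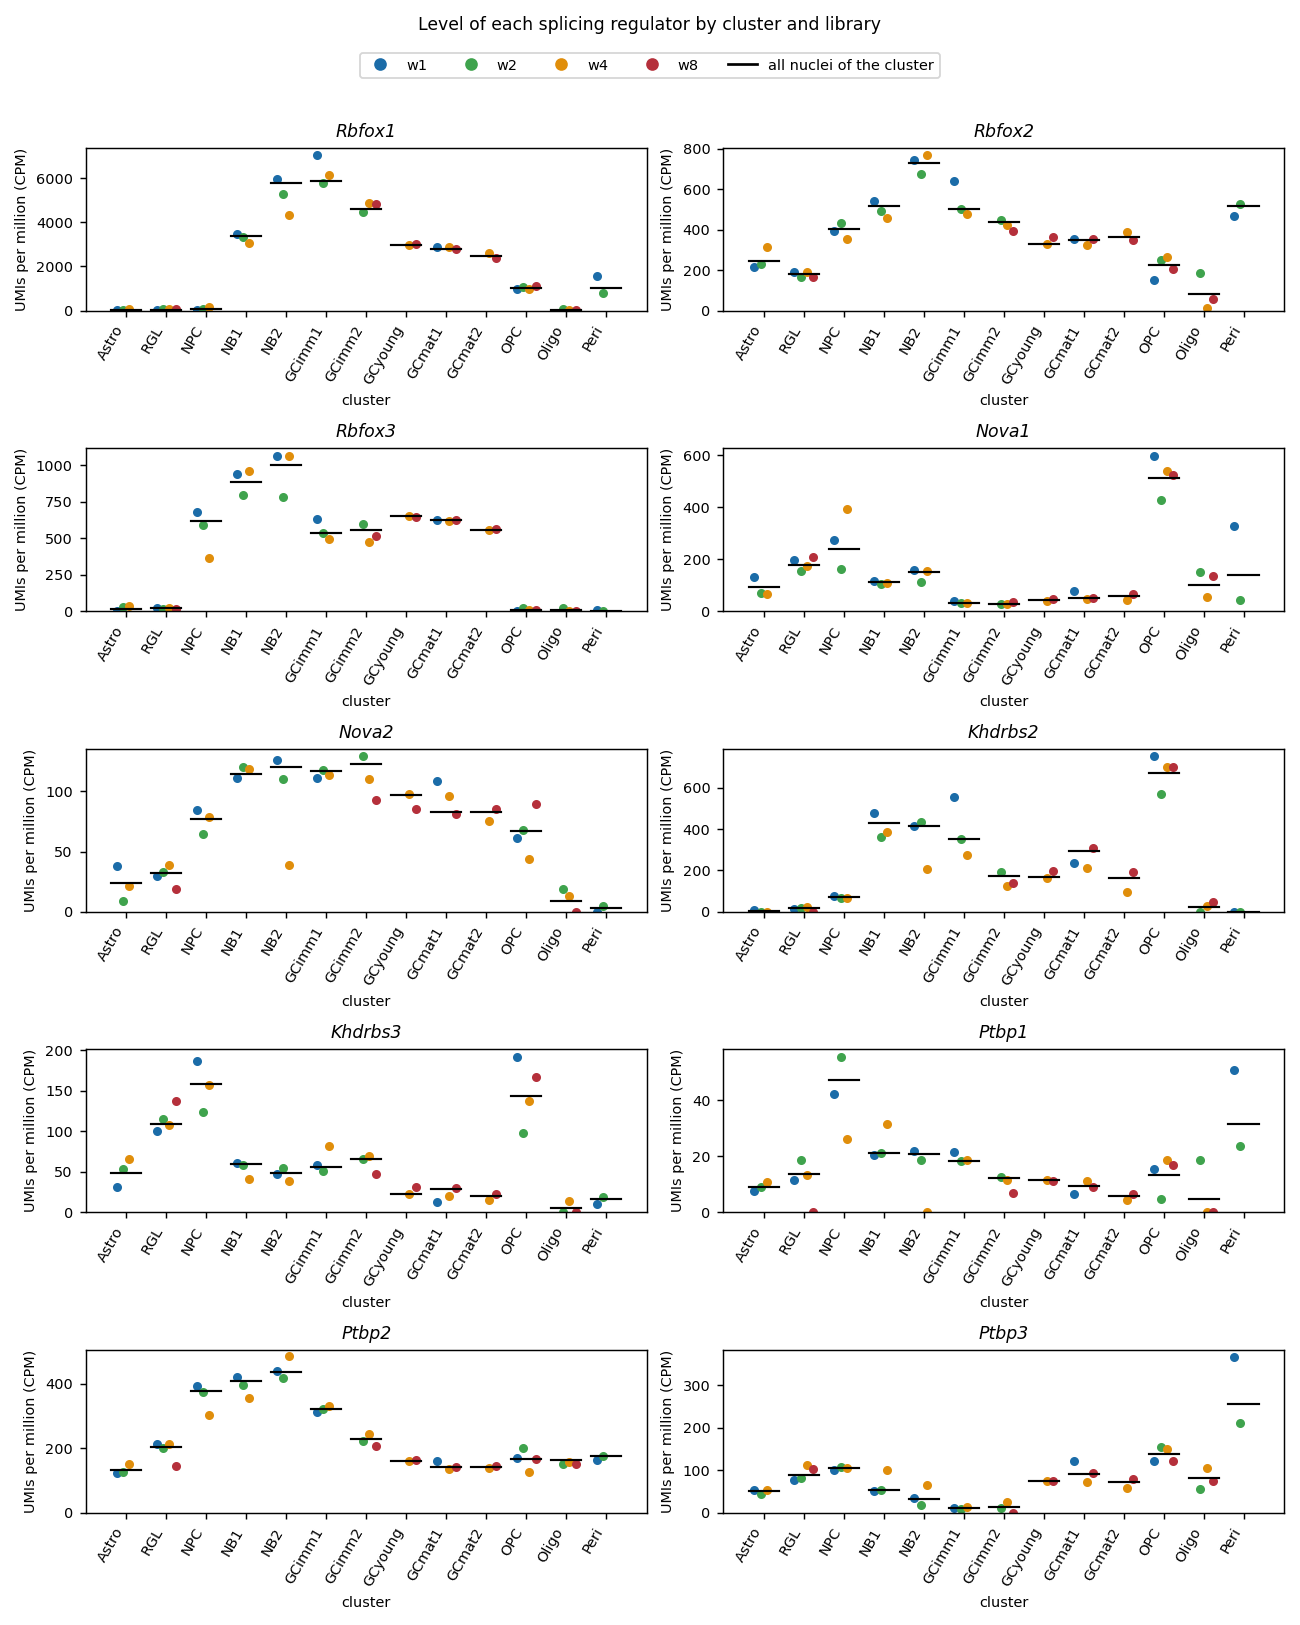
Level of each gene (UMIs per 1000000, linear axis from 0) in each cluster, with a point for every library that held at least 10 nuclei and a bar for all nuclei of the cluster. Rbfox1 is near 0 up to NPC and is at 3393 in NB1, Ptbp1 is highest in NPC, and Ptbp3 is lowest in GCimm1.

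Along the lineage the genes did not switch on together. Rbfox3 and Khdrbs2 rose from RGL to NPC and again from NPC to NB1, and Rbfox1 was called at the later of these steps. Nova2 was called higher at both, the first time in a call lost without w1 and after thinning and the second time in one lost without w2. Nova1 and Khdrbs3 fell from NPC to NB1. Ptbp1 rose from RGL to NPC, and its fall from NPC to NB1 was seen in 2 of 3 libraries and lost without w1 or without w2. Ptbp3 fell from NB1 to GCimm1 and rose from GCimm2 to GCyoung. From RGL to GCmat1, 7 of the 10 genes were called, 5 higher (Rbfox1, Rbfox3, Khdrbs2, Nova2, Rbfox2) and 2 lower (Khdrbs3, Nova1), where 51.0% of all genes tested were called. The median log2 change over all 10 genes, called or not, was 0.81, and the median over all genes tested was -0.02.

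**Figure D2:**
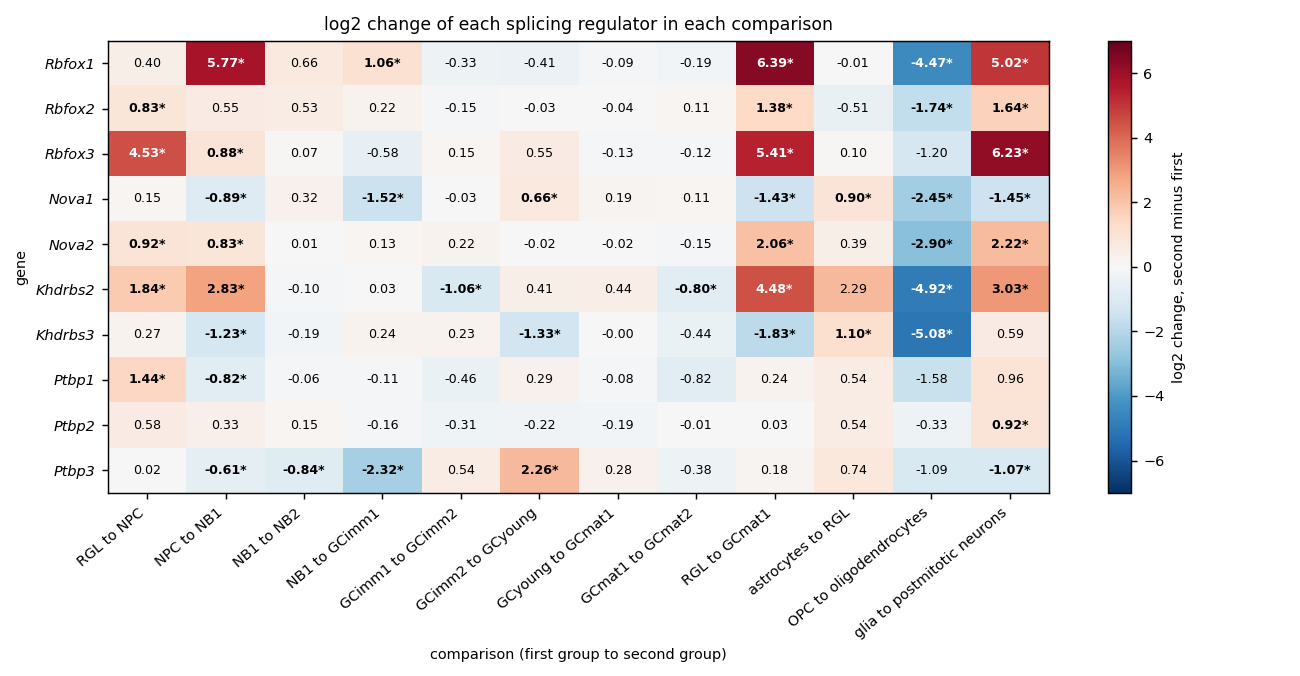
Log2 change of each gene (rows) in each of 12 comparisons (columns), second group minus first, from the edgeR fit. An asterisk marks a called change. Among the steps between neighbouring lineage clusters, NPC to NB1 has the most calls, 8 of 10 genes against 31.4% of all genes tested, and GCyoung to GCmat1 has 0 against 4.23%. RGL to GCmat1 has 7 (51.0%), glia to postmitotic neurons 8 (34.8%) and OPC to oligodendrocytes 6 (20.0%).

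Rbfox1 had the largest change in the lineage among the 10 genes. In RGL its level was 18.3, 55.0, 58.9 and 54.2 CPM from w1 to w8, and in NPC it was 32.1 in w1, 95.5 in w2 and 144 in w4. In NB1 it was 3455 in w1, 3336 in w2 and 3045 in w4. NPC and NB1 libraries did not overlap, and the edgeR log2 change was 5.77 (SE 0.36, adjusted p = 1.4e-19, higher in 3 of 3 libraries). From RGL to NPC the log2 change was 0.40 (adjusted p = 0.47) and was not called. From NB1 to GCimm1 it rose again by a log2 of 1.06 (SE 0.25, adjusted p = 0.0013), to a pooled level of 5869 CPM. Pooled levels were lower in the later clusters, with 4616 CPM in GCimm2, 2985 in GCyoung, 2796 in GCmat1 and 2458 in GCmat2, although none of the single steps from GCimm1 to GCmat2 was called.

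From RGL to NB2, the share of nuclei with an Rbfox1 UMI rose with the level. After every nucleus was thinned to 2000 UMIs, it was 7.87% in RGL (95% exact interval 6.50 to 9.43%), 11.2% in NPC, 84.0% in NB1 and 97.6% in NB2. Without thinning, shares were 14.8%, 19.4%, 87.2% and 97.9%. Elsewhere share and level parted. The thinned share was 99.4% in GCyoung, 99.4% in GCmat1 and 98.1% in GCmat2, whose pooled levels were below that of NB1. In OPC it was 82.4%, at a pooled level of 1046 CPM. The thinning left out 15 RGL, 5 NPC, 92 NB1 and 21 NB2 nuclei that held fewer UMIs. In the 67 astrocytes the thinned share was 8.96% (95% exact interval 3.36 to 18.5%), at a median depth of 4670 UMIs against 4091 in RGL and 4278 in NPC. This wide interval overlaps those of RGL and NPC, and the part of free RNA in these low shares was not tested.

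By cluster, Rbfox3 was first called higher from RGL to NPC and Rbfox1 from NPC to NB1. Rbfox3 was among the markers by which the paper identified its neuronal clusters, NPC included. Its difference between RGL and NPC is therefore not independent of the cluster names. In RGL Rbfox3 lay between 15.9 CPM (w8) and 22.2 (w1), and in NPC it was 681 in w1, 592 in w2 and 367 in w4. The groups did not overlap, with a log2 change of 4.53 (SE 0.24, edgeR adjusted p = 2.4e-22). It rose further to NB1 (log2 0.88, adjusted p = 0.00036), where it was 941 in w1, 795 in w2 and 957 in w4. In NPC there were 562 Rbfox3 UMIs to 61 of Rbfox1, a ratio of Rbfox1 to Rbfox3 of 0.109, while the ratio was 3.83 in NB1 and 11 in GCimm1. From NB1 to GCimm1 the log2 change of Rbfox3 was -0.58 (adjusted p = 0.025), just short of the fold required, and its level then stayed between 535 and 652 CPM from GCimm1 to GCmat2. The highest pooled level of this gene of the NeuN antigen was 1004 CPM, in NB2.

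Rbfox2, a broadly expressed member of the family, was measured in every cluster. In RGL it lay between 164 and 194 CPM in the 4 libraries, and in NPC it was 395 in w1, 434 in w2 and 354 in w4. All NPC libraries were above all RGL libraries, and the change was called (log2 0.83, SE 0.19, edgeR adjusted p = 0.00038). Its highest pooled level was 731 CPM in NB2, with 744 in w1, 679 in w2 and 769 in w4. From RGL to GCmat1 it rose by a log2 of 1.38 (SE 0.18, adjusted p = 9.9e-10), while the ratio of its pooled CPM gave 0.95.

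The Nova genes moved apart. Nova2 rose from RGL to NPC (log2 0.92, SE 0.26, edgeR adjusted p = 0.0039) and from NPC to NB1 (log2 0.83, SE 0.23, adjusted p = 0.0032), and from NB1 to GCimm2 its pooled level stayed between 114.5 and 122.5 CPM. It was 84.2 in w1, 64.7 in w2 and 78.6 in w4 in NPC, above all RGL libraries (19.1 to 39.0) and below all NB1 libraries (110.8 to 119.9). The first call was lost without w1 (log2 0.58, adjusted p = 0.3) and after thinning, and the second without w2 (log2 0.66, adjusted p = 0.12). Nova1 had 197, 155, 175 and 207 CPM from w1 to w8 in RGL, and 272.5 in w1, 160.2 in w2 and 393 in w4 in NPC, where the libraries spread widely. In NB1 it was 117 in w1, 104 in w2 and 107.5 in w4, below all NPC libraries (log2 -0.89, SE 0.21, adjusted p = 0.0005). In GCimm1 it was 38.2 in w1, 32.1 in w2 and 30.8 in w4, again with no overlap (log2 -1.52, SE 0.20, adjusted p = 1.4e-08). From GCimm2 to GCyoung it rose (log2 0.66, adjusted p = 0.039), a call that 8 of 12 alternative fits did not keep.

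From NPC to NB1 and from RGL to GCmat1, Khdrbs2 and Khdrbs3 also went opposite ways. Khdrbs2 lay between 0 and 21.4 CPM in the RGL libraries and was 76.2 in w1, 64.7 in w2 and 65.5 in w4 in NPC (log2 1.84, SE 0.38, edgeR adjusted p = 8.1e-05). In NB1 it was 479 in w1, 361 in w2 and 388 in w4, a log2 change of 2.83 from NPC (SE 0.30, adjusted p = 1.6e-11). From GCimm1 to GCimm2 it fell by 1.06 on the log2 scale (SE 0.22, adjusted p = 0.00036), from 352 to 193 CPM in w2 and from 276 to 126 in w4. In GCmat1 it was 237 in w1, 209.6 in w4 and 306 in w8, and in GCmat2 it was 95.0 in w4 and 190.5 in w8. The difference between GCmat1 and GCmat2 was called (log2 -0.80, SE 0.26, adjusted p = 0.045), but the call was lost in 6 of 12 alternative fits, among them DESeq2 and the fits without w4 and without w8.
Khdrbs3 was 186 in w1, 123 in w2 and 157 in w4 in NPC and 61.0 in w1, 58.0 in w2 and 40.3 in w4 in NB1. These groups did not overlap (log2 -1.23, SE 0.21, adjusted p = 4e-06). It fell again from GCimm2 to GCyoung (log2 -1.33, SE 0.22, adjusted p = 3e-06), from 69.1 to 21.9 CPM in w4 and from 46.6 to 31.4 in w8. Without w4 this call was lost (log2 -1.08, adjusted p = 0.13).

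Of the Ptbp family, Ptbp1 had few UMIs, with 84 UMIs in all RGL and 43 in all NPC nuclei. It was 11.3, 18.8, 13.3 and 0 CPM from w1 to w8 in RGL (0 of 313734 UMIs, with an upper Poisson limit of 11.8 CPM), and 42.1 in w1, 55.5 in w2 and 26.2 in w4 in NPC. All NPC libraries were above all RGL libraries (log2 1.44, SE 0.35, edgeR adjusted p = 0.00081), but the w4 value rests on 2 UMIs. In NB1 it was 20.6 in w1, 21.3 in w2 and 31.4 in w4, so the fall from NPC (log2 -0.82, SE 0.32, adjusted p = 0.043) held in 2 of 3 libraries, and 4 of 11 alternative fits did not keep it, among them those without w1 (log2 -0.80, adjusted p = 0.26) and without w2 (log2 -0.60, adjusted p = 0.38). Ptbp1 overlaps Lppr3 on the opposite strand. Counting used default parameters per the study's methods, and in STARsolo the default counts reads on the strand of the gene. Whether reads of one gene entered the count of the other was not tested.

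Ptbp2 was higher in NPC than in RGL in 3 of 3 libraries, but its log2 change of 0.58 (SE 0.16, edgeR adjusted p = 0.003) was just under the fold required. With DESeq2 Ptbp2 was called at this step (log2 0.59, DESeq2 adjusted p = 4.6e-06). In RGL it was 212, 200.1, 211 and 143 CPM from w1 to w8, and in NPC 393 in w1, 373 in w2 and 301 in w4. Its pooled level was highest in NB2, at 436 CPM, and was 322 in GCimm1, 228 in GCimm2, 159 in GCyoung and 141 in GCmat1, although no single step was called. From RGL to GCmat1 the fitted log2 change of Ptbp2 was 0.03 (adjusted p = 0.98), whereas the ratio of its pooled CPM gave -0.54 and DESeq2 -0.11. The fit scales libraries by trimmed means and CPM by all UMIs, and no direction is given for Ptbp2 over that span. The fitted change over that span was above that of pooled CPM for every member, for example 2.06 against 1.36 for Nova2.

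The ratio of Ptbp2 to Ptbp1 UMIs over all libraries was lowest among lineage clusters in NPC, at 7.98 (95% interval 5.80 to 11.2). It was 14.8 in RGL (11.9 to 18.7), 19.2 in NB1 (16.8 to 22.0), 17.6 in GCimm1 (15.4 to 20.1) and 15 in GCmat1 (13.3 to 17.0). The interval of NPC did not overlap that of any of these clusters, and it covers counting error only. Within libraries the ratio was 9.33 in NPC and 18.8 in RGL in w1, 6.72 and 10.65 in w2, and 11.5 and 15.9 in w4. The intervals of NPC and RGL overlapped in each of these libraries, at 5.94 to 15.4 and 12.7 to 29.0 in w1, 4.08 to 11.7 and 7.69 to 15.1 in w2, and 2.84 to 100.6 and 9.91 to 27.3 in w4. In NB1 the ratio was 20.45 (17.2 to 24.6) in w1 and 18.6 (15.0 to 23.4) in w2, with intervals above those of NPC. In w4 it was 11.3 in NB1, below that of NPC, which rests on 2 Ptbp1 UMIs. Thinned to 2000 UMIs per nucleus, the ratio was 8 in NPC and 19.6 in RGL. Ptbp1 was called higher in NPC than in RGL, and Ptbp2 had 376 CPM against 204.

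**Figure D3:**
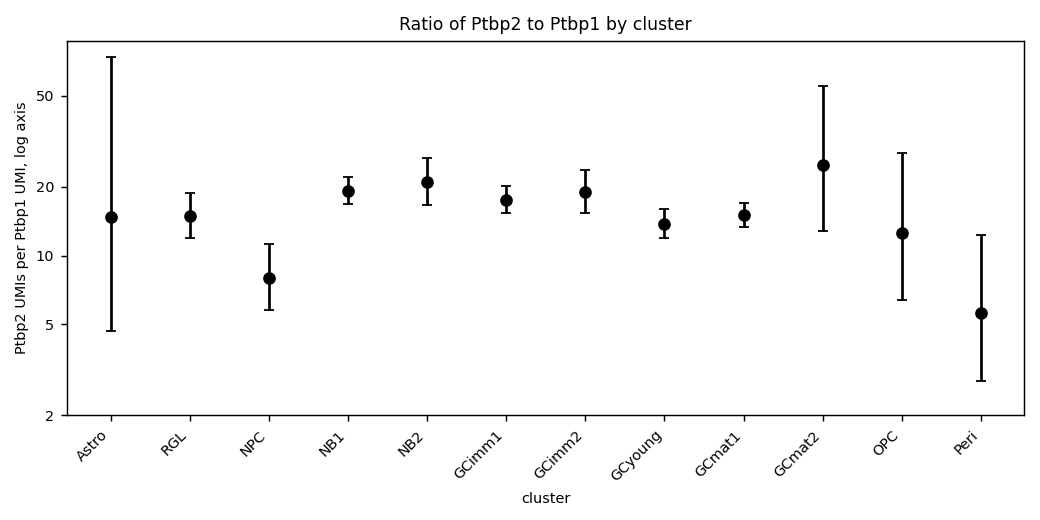
Ptbp2 UMIs per Ptbp1 UMI (log axis) by cluster over all libraries, with exact 95% intervals for counting error; oligodendrocytes, with 1 Ptbp1 UMI, are not drawn. NPC lies at 7.98, with an interval below those of RGL, NB1, NB2, GCimm1, GCimm2, GCyoung, GCmat1 and GCmat2.

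Ptbp3 had a trough in the middle of the lineage. In NPC it was 100.2 CPM in w1, 108 in w2 and 105 in w4, and in NB1 49.97 in w1, 53.8 in w2 and 100.8 in w4. That fall was small (log2 -0.61, SE 0.24, edgeR adjusted p = 0.042) and was lost in 7 of 12 alternative fits, among them those without w1 (adjusted p = 0.32) and without w2 (adjusted p = 0.24). In GCimm1 it was 10.7 in w1, 9.69 in w2 and 12.9 in w4, below every NB1 library (log2 -2.32, SE 0.22, adjusted p = 3.1e-12). In GCimm2 it was 9.78 in w2, 24.6 in w4 and 0 in w8 (28 nuclei, upper Poisson limit 24.6), and in GCyoung 74.5 in w4 and 75.3 in w8. All GCyoung libraries were above all GCimm2 libraries (log2 2.26, SE 0.24, adjusted p = 4.9e-11), and this call and the fall from NB1 to GCimm1 held in 12 of 12 alternative fits of the counts. Neither was called in the deposited log2 means, where limma gave the log2 change of Ptbp3, GCimm2 to GCyoung, as 0.37 (adjusted p = 0.0017, short of the fold required) and the log2 change of Ptbp3, NB1 to GCimm1, as -0.22 (adjusted p = 0.11). Without w4, which holds 1979 of the 2176 GCyoung nuclei, the rise to GCyoung was the only call among the 10 genes at this step (log2 3.03).

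Set against the whole transcriptome, the calls were not equally dense. From RGL to NPC 5 of 10 genes were called, all higher, where 31.6% of all genes tested were. From NPC to NB1 it was 8 of 10, with 4 higher and 4 lower, where 31.4% of all genes were. Without w2 it was 5 of 10, with Nova2, Ptbp1 and Ptbp3 no longer called. The share of all genes called without w2 is not given, so this drop cannot be set against all genes. From NB1 to GCimm1 3 of 10 were called (13.2% of all genes), from GCimm1 to GCimm2 1 of 10 (9.89%) and from GCimm2 to GCyoung 3 of 10 (19.6%). Over all genes the GCimm2 to GCyoung calls were 1079 higher and 1189 lower, and with DESeq2 605 and 1057. From GCmat1 to GCmat2 1 of 10 was called (7.91%). Between GCyoung and GCmat1 edgeR called 0 of the 10 genes, 0 had an unadjusted p under 0.05 and DESeq2 called 0, while 4.23% of all genes were called (197 higher and 292 lower, and 53 and 168 with DESeq2). Between the neuroblast clusters NB1 and NB2 1 of 10 was called (3.07% of all genes, 222 higher and 133 lower, and 134 and 35 with DESeq2). It was Ptbp3 (log2 -0.84, SE 0.23, adjusted p = 0.026), a call lost in 6 of 12 alternative fits, including DESeq2 and each of those without w1, w2 or w4. The member that DESeq2 called was Rbfox2 (log2 0.60, DESeq2 adjusted p = 0.0012), which was also called with RLE factors (log2 0.61, adjusted p = 0.02) but not in the edgeR fit with trimmed means (log2 0.53, SE 0.18, adjusted p = 0.11). Its NB2 libraries (679 to 769 CPM) all lay above its NB1 libraries (457 to 540.2).

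The deposited pseudo-time orders the nuclei of the trajectory, and levels were taken in bins of 2 units. The authors fitted it to expression values of the same nuclei, so it gives no independent evidence for the order of these changes. Rbfox3 was 17.3 CPM in the bin from 0 to 2, 286 from 6 to 8, 1017 from 8 to 10 and 1125 from 10 to 12. Rbfox1 was 43.4 from 0 to 2, 242 from 6 to 8 and 92.4 from 8 to 10. From 6 to 8 both genes were thus above their own first bin. Rbfox1 reached 2314 from 10 to 12 and 6137 from 16 to 18. The bin from 6 to 8 had 101 nuclei, 75.25% of them NPC. It held 103 Rbfox1 UMIs, where all NPC nuclei held 61. Nova1 had its highest bin at 8 to 10 (345.5 CPM, with 362 in w1 and 280 in w2) and its lowest at 18 to 20 (26.1). Ptbp1 was 11.9 from 0 to 2, 50.8 from 2 to 4 (70 nuclei, 87.1% of them RGL), 39.9 from 6 to 8, 38.2 from 8 to 10 and 9.18 from 30 to 32. Its highest bin was mostly RGL nuclei, whereas by cluster its level was highest in NPC, and the Poisson intervals of these bins overlap (29.6 to 81.3 from 2 to 4, 23.2 to 63.9 from 6 to 8 and 27.0 to 52.4 from 8 to 10). Ptbp3 was 82.9 from 10 to 12, 6.57 from 18 to 20 and 92.0 from 30 to 32. In the bins that several libraries filled with at least 50 nuclei, Ptbp3 from 18 to 20 was 4.96 in w2 and 12.3 in w4. Bins with fewer than 50 nuclei were left out.

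**Figure D4:**
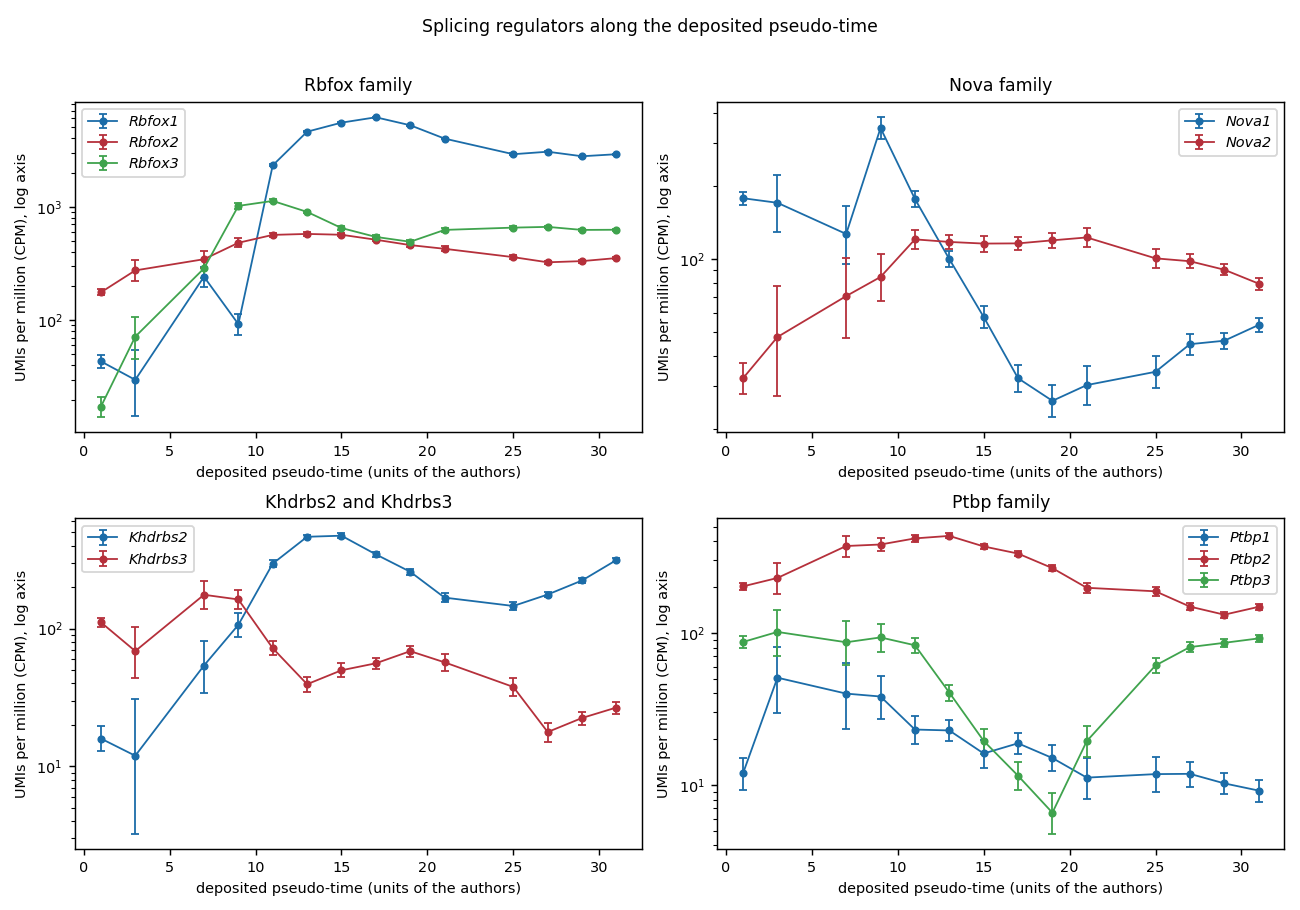
Level of each gene (UMIs per 1000000, log axis) against the deposited pseudo-time in bins of 2 units with at least 50 nuclei, all libraries pooled, with exact 95% Poisson intervals. Rbfox3 reaches 1017 in the bin from 8 to 10, where Rbfox1 is at 92.4, and Ptbp3 dips to 6.57 in the bin from 18 to 20.

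Glia differed from postmitotic neurons, and from each other. Against astrocytes, OPC and oligodendrocytes together, the 6 clusters from NB1 to GCmat1 had higher Rbfox3 (log2 6.23), Rbfox1 (5.02), Khdrbs2 (3.03), Nova2 (2.22), Rbfox2 (1.64) and Ptbp2 (0.92), and lower Nova1 (-1.45) and Ptbp3 (-1.07). These 8 of 10 genes were called, where 34.8% of all genes tested were. The paper identified its neuronal clusters by Rbfox3 among other markers, so the difference of Rbfox3 is not independent of the cluster names. The median of all genes was itself shifted by 0.41 in this comparison and by -0.00 with DESeq2, and the calls over all genes were 2971 higher and 1044 lower with edgeR and 1999 higher and 2451 lower with DESeq2. With DESeq2 the same 8 genes were called, and Ptbp2, the smallest of them, had a log2 change of 0.68. The glial mean includes OPC, where Nova1 had 512 CPM and Ptbp3 139. Khdrbs2 and Ptbp2, both called higher in neurons, were not above every glial cluster. Khdrbs2 had 671 CPM in OPC, more than in any of the 6 neuronal clusters (at most 431, in NB1), and Ptbp2 had 167 in OPC and 164 in oligodendrocytes, with 159 in GCyoung and 141 in GCmat1. For the genes called lower, the order against the other glia was also mixed: Nova1 had 112 CPM in NB1 and 149 in NB2, with 92.5 in astrocytes and 100.2 in oligodendrocytes, and Ptbp3 had 91.2 in GCmat1, with 50.7 in astrocytes and 81.9 in oligodendrocytes.

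OPC stood out among the glia. Khdrbs2 had its highest level of all clusters there, at 752, 569, 701 and 702 CPM from w1 to w8, and so did Nova1, at 598, 428, 538 and 524 CPM from w1 to w8. Rbfox1 was 989, 1070, 977 and 1120 CPM from w1 to w8. Rbfox3 had 7 UMIs in all OPC and 10.4 CPM, near its level in astrocytes (17.9), and Rbfox1 had 706 UMIs. The ratio of Rbfox1 to Rbfox3 was 101 in OPC and lay between 3.83 and 11 in the clusters from NB1 to GCmat1. In oligodendrocytes there were 11 UMIs of Rbfox1 and 5 of Khdrbs2. From OPC to oligodendrocytes 6 of 10 genes were called, all lower, where 20.0% of all genes were. Rbfox1 fell by 4.47 on the log2 scale (edgeR adjusted p = 1.9e-11), Khdrbs2 by 4.92 (2.7e-11), Nova1 by 2.45 (2.5e-08) and Rbfox2 by 1.74 (0.00045), against a median of all genes of -0.43 (-0.19 with DESeq2). Khdrbs3 and Nova2 were also called lower, but rest on 1 and 2 UMIs in oligodendrocytes: the ratio of OPC to oligodendrocyte CPM was 31.6 (95% counting interval 5.53 to 1259) for Khdrbs3 and 7.32 (1.91 to 62.3) for Nova2. Nova2 lost the call without w8 and after thinning, and Rbfox2 without w4. Ptbp2 was the member closest to equal, with 113 UMIs in OPC and 36 in oligodendrocytes, a ratio of CPM of 1.02 (0.696 to 1.53).

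Between astrocytes and RGL few members were called. RGL had higher Khdrbs3 (log2 1.10, SE 0.38, edgeR adjusted p = 0.045) and Nova1 (log2 0.90, SE 0.31, adjusted p = 0.05), 2 of 10 genes where 11.0% of all genes were called. The median of all genes was shifted by 0.21 (-0.00 with DESeq2), with 594 genes called higher and 675 lower (313 and 867 with DESeq2). With 67 astrocyte nuclei neither call was firm: Khdrbs3 was lost in 7 and Nova1 in 6 of 12 alternative fits, and both were lost without w2 and without w4. With RLE factors and with DESeq2 neither was called, and Rbfox2 was called lower in RGL (log2 -0.68, edgeR adjusted p = 0.042, and log2 -0.67, DESeq2 adjusted p = 0.011). In the main fit Rbfox2 was not called (log2 -0.51, adjusted p = 0.19), and it was lower in 3 of 3 libraries. In the 60 pericyte-labelled nuclei Rbfox1 was 1557 CPM in w1 and 787 in w2, Rbfox3 had 1 UMI and Ptbp3 reached its highest level of all clusters, 366 in w1 and 212 in w2. Pericytes entered no comparison. Of the pericyte markers, Pdgfrb was 101 CPM there and 89.5 in astrocytes, and Lpar1, listed for RGL, was highest in this cluster (777 CPM). The name is that of the authors, and whether these nuclei are pericytes was not tested.

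Per length of gene, the order of the members differs from that of the raw levels. In GCmat1 the pooled level per 100 kb of gene was 214 CPM for Ptbp2, 211 for Nova2, 183 for Rbfox1, 154 for Rbfox2, 148 for Rbfox3, 118 for Ptbp3, 90.7 for Ptbp1, 60.6 for Khdrbs2, 40.5 for Nova1 and 16.5 for Khdrbs3. Rbfox1 spans 1526 kb and Ptbp1 10.35 kb, and this scale assumes that UMIs gather in proportion to length.

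Other splicing factors were counted from lists, of which 22 of 25 other neuronal or tissue-specific factors, 16 of 16 SR proteins, 24 of 25 hnRNP proteins and 11 of 12 transcripts known to be spliced by members were tested. From RGL to NPC 10 of the 22 tissue-specific factors were higher and 3 lower, with a median log2 change of 0.46 against -0.04 for all genes. Of all genes tested 31.6% were called at this step, 1709 higher and 1945 lower. Srrm4, which promotes neuronal microexons, rose from 10.2 to 673 CPM (log2 5.65, edgeR adjusted p = 9.6e-25), and Qk, a factor of glia, fell from 1577 to 420 (log2 -2.11, adjusted p = 2.9e-13). From NPC to NB1 6 of the 22 factors were higher and 5 lower, where 31.4% of all genes were called. Among them were Celf4, from 70.1 to 521 CPM (log2 3.22), and Elavl4, from 724 to 142 (log2 -2.19). Rbm24 was at 38.3 CPM in NPC, 2.84 in NB1, 2.67 in GCimm2 and 43.5 in GCyoung (log2 4.02, adjusted p = 2.9e-12, from GCimm2 to GCyoung).
SR and hnRNP proteins are general splicing factors. From RGL to NPC, where 31.6% of all genes tested were called, 4 of 16 SR genes were higher and 2 lower, and 5 of 24 hnRNP genes were higher. From NPC to NB1 (31.4% of all genes) the counts were 1 and 3 for SR genes and 1 and 2 for hnRNP genes. Among transcripts that the members splice, 2 of 11 were higher and 6 lower from RGL to NPC, and 6 higher and 1 lower from NPC to NB1, where Grin1, an NMDA receptor subunit with a regulated exon, rose from 16.4 to 174 CPM (log2 4.28, adjusted p = 4.2e-14).

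Over the 38 sums of the fit, the gene whose log2 CPM followed Rbfox1 most closely was Sema5a, with a Pearson r of 0.961, followed by Cacna1c (0.946) and Ntrk3 (0.934). For Ptbp2 they were Xkr7 (0.911), Ehmt1 (0.905) and Tia1 (0.902), and for Ptbp3 Nr3c1 (0.854), Arid5b (0.816) and Ell (0.749). For Ptbp1 the highest r was 0.786, with Ube2m. Among the members, Nova2 and Khdrbs2 were closest (0.709), and Rbfox3 and Ptbp3 furthest apart (-0.418). The sums share libraries and clusters, so these are descriptions without a test.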

How the data were processed

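Nuclei were sorted and profiled by the submitters with 10x 3' chemistry (v3.1), 1 library per time point. The driver of the Cre is not reported here. The authors aligned reads to GRCm38 (mm10 per the labels) with STARsolo (2.7.4a in the submitters' processing notes) and excluded multi-mapped reads. They deposited UMI counts, whole numbers counted over exons and introns for each gene and barcode. They also deposited log2 expression (scran size factors, 1 added before the log) with the cluster and pseudo-time of each nucleus. There 14367 nuclei have a column, and the 2679 other barcodes include nuclei the authors removed as doublets (scDblFinder) or of low quality and w4 nuclei set aside as an outlier. No further doublet call was made. That table keeps features detected in 1 to 80% of nuclei, so Rbfox1, Rbfox2 and Rbfox3 are not in it, and raw counts were used for all levels.

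UMIs were summed per library and cluster with at least 10 nuclei, giving 38 sums. They were fitted with edgeR 4.0.16 (filterByExpr, TMM factors, glmQLFit and glmQLFTest) with cluster and library terms, 22 residual degrees of freedom and a common dispersion of 0.0154. The method was tested on simulated counts. Pools hold several mice, so p-values reflect the spread between these sums, which may be technical. Alternatives, run with DESeq2 1.42.0, limma 3.58.1 and edgeR, were other scaling, no library term, no filter on low counts, minima of 5 or 20 nuclei, thinning to 2000 UMIs, other fold thresholds, leaving out pericytes, oligodendrocytes and OPC, the deposited log2 values, and leaving out each library. Intervals are exact 95% Poisson or Clopper-Pearson intervals. Gene positions and transcripts come from GENCODE M21, and no transcript of any member shares a run of 60 bases with that of another. The 10 genes and all lists were chosen with earlier results of these data known. All 10 were to be named in every comparison, with the 3 genes of closest pattern for each, and genes of other lists with a fold change of at least 4 or among the 2 largest of their list. Not all of these are printed. Scripts used Python 3.11.15 and R 4.3.3.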

Additional observations from a re-analysis of the deposited data

Results flagged for a closer look

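A single level stood apart from the other libraries of its cluster by Dixon's test, among 20 groups of 4 libraries looked at, and chance alone marks about 1 in 20. Rbfox1 in RGL of w1 was 18.27 CPM (42 UMIs), below 54.97, 58.9 and 54.19 from w2 to w8.

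In 2 of 110 gene and step pairs, libraries moved in opposite directions beyond counting error, and the difference between libraries was not tested. For Khdrbs2 from NB1 to NB2, the log2 ratio of CPM was 0.263 in w2, -0.204 in w1 and -0.919 in w4. For Khdrbs2 from NB1 to GCimm1 it was 0.211 in w1 and -0.488 in w4. Neither step was called for Khdrbs2 in the fit.

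All 10 genes were also measured in the 2679 barcodes without a deposited cluster, 1628 of them in w4, which entered no comparison. Their pooled levels were 2851 CPM for Rbfox1, 322.5 for Rbfox2, 529.2 for Rbfox3, 47.13 for Nova1, 78.59 for Nova2, 176.1 for Khdrbs2, 57.4 for Khdrbs3, 15.41 for Ptbp1, 177.4 for Ptbp2 and 43.18 for Ptbp3.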

How the results depend on the processing

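Between time points, no paired analysis was possible because each is a single library. Clusters were compared within libraries, through the library term of the fit. Of the 45 calls of the 10 genes, 0 reversed under any alternative. DESeq2 kept 39, RLE factors 42, no library term 39, no filter on low counts 43 and a minimum of 5 nuclei 39. In the same order these fits gained 3, 2, 1, 3 and 3 calls that the main fit did not make. Thinning kept 37 of the 43 it could give, and leaving out w1, w2, w4 or w8 kept 40, 38, 38 and 42. A minimum of 20 nuclei kept 31 of 31, and neither it nor the fit without pericytes, oligodendrocytes and OPC could give the glial comparisons that need those sums.

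Numbers of genes called that moved by over 1.5 times are given by step, and beyond the construction of each alternative the cause was not tested. The share of all genes called under each alternative is not given here. The deposited log2 means, which hold 7 of the 10 genes, gave 0 calls in RGL to NPC, NB1 to NB2, NB1 to GCimm1, GCimm1 to GCimm2, GCimm2 to GCyoung, GCmat1 to GCmat2, astrocytes to RGL and glia to neurons, 1 in NPC to NB1 and in RGL to GCmat1, and 3 in OPC to oligodendrocytes. Their small differences seldom reach a fold of 1.5. A fold of 2 left 3 of 5 in RGL to NPC, 3 of 8 in NPC to NB1, 0 of 1 in NB1 to NB2 and GCmat1 to GCmat2, and 1 of 2 in astrocytes to RGL. Thinning left 3 of 5 in RGL to NPC, where it lost Nova2 and could give no value for Ptbp1. It left 0 of 1 in GCmat1 to GCmat2 and 1 of 2 in astrocytes to RGL. For NB1 to NB2, RLE factors, no filter and a minimum of 20 nuclei gave 2, and no library term or a minimum of 5 nuclei 0. For GCmat1 to GCmat2, no library term, DESeq2 and a minimum of 5 nuclei gave 0. For astrocytes to RGL, no library term gave 1 and a minimum of 5 nuclei 0. RLE factors and DESeq2 also gave 1, but this was Rbfox2, lower in RGL, and not a gene called in the main fit. The Ptbp2 to Ptbp1 ratio in RGL moved from 14.8 to 19.6 when thinned.

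With each library left out in turn, the number called was 4 to 6 in RGL to NPC, 5 to 8 in NPC to NB1, 0 to 1 in NB1 to NB2, 3 to 4 in NB1 to GCimm1, 1 to 1 in GCimm1 to GCimm2, 1 to 4 in GCimm2 to GCyoung, 0 to 0 in GCyoung to GCmat1, 0 to 1 in GCmat1 to GCmat2, 7 to 8 in RGL to GCmat1, 0 to 3 in astrocytes to RGL, 5 to 6 in OPC to oligodendrocytes, 8 to 8 in glia to postmitotic neurons. The shares of all genes called in those fits are not given, so these ranges cannot be set against all genes. Depth limits Ptbp1 most, with 43 UMIs in NPC, and all genes in the 45 oligodendrocytes.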

Other observations

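In w8, 216 GCmat1 nuclei have no deposited pseudo-time and 2711 have one. The paper left GCmat1 nuclei with a strong signal of ventral genes out of its pseudo-time, and whether these 216 are those nuclei was not tested. Both kinds entered the GCmat1 sums of the fit. Khdrbs2 was 453 CPM in those without and 291 in those with a value, Khdrbs3 57.1 and 27.2, and Rbfox1 2384 and 2828. These are values of 1 library, with no test.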
